A study of Drosophila melanogaster and Drosophila virilis and Drosophila yakuba with 44 samples.

Results

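Mitochondrial ribosomal protein genes are the nuclear genes that encode the protein subunits of the ribosome inside mitochondria. They were taken from the gene count tables of Drosophila melanogaster by symbol, as every row whose name starts with mRpL or mRpS and a number. The rule found 73 of 13458 genes, of which 47 carry a large-subunit (mRpL) and 26 a small-subunit (mRpS) symbol, and it used no measured value. RNA was profiled by 3′-seq, in which oligo-dT priming yields reads from the polyadenylated end of a transcript, and in head, ovary and testis also by total RNA-seq of the same RNA. The 23 3′-seq libraries of D. melanogaster comprised 7 adult, 6 embryonic and 10 cell line samples, each condition with 1 library.

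Canton S was the strain named for the dissected head, ovary and testis, taken from adults of 2–5 days. The heads came from mated females. Whole female and whole male flies (Whole body female 2-5d, Whole body Male 2-5d) were mated and of the same age, and carcass (Carcass Female, Carcass Male) was the body without head and without ovaries or testes. Embryos were collected as 6 windows after egg laying (0–45 min, 45–90 min, 90 min to 6 h, then 6–12 h, next 12–18 h and last 18–24 h). The cell lines carried the labels gm2 (called GM2 here), mbn2, cmel1 (L1), BG3, mldmd16_c3 (D16-c3), Dmd4 (D4), Dmd32 (D32), Dmd20 (D20), OSS and S2R+. OSS derives from somatic cells of the ovary, and each line is an established culture and not a tissue.

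Counted reads ranged from 42379 in the 45–90 min embryos to 15693295 in ovary, and only the 45–90 min and BG3 (477958 reads) libraries had fewer than 1519235. Levels are given as RPM, reads per 1000000 counted reads after TMM (trimmed mean of M-values) scaling. A log2 ratio between libraries was taken after adding to both levels the RPM of 0.5 reads at the mean scaled library size. Folds printed with an interval are plain ratios of RPM. Genes with a mean of at least 5 RPM were compared, 9867 of them by 3′-seq and 9819 by RNA-seq. With 1 library per condition no difference has a replicate check, so no p-value is given, and the 95% binomial intervals in brackets cover counting error only, since reads are not independent molecules. Markers of the dissected tissues were where the labels place them. The summed 3′-seq level of 5 neuronal markers was 3946 RPM in head, 28.7 RPM in ovary and 56.6 RPM in testis, that of 5 testis markers was 14620 RPM in testis and at most 8.06 RPM in head, ovary, carcass and OSS, and that of 5 female germline markers was 2666 RPM in ovary and 30.7 RPM in testis. Markers of 3 male accessory gland products summed to 435 RPM in testis, and 4 follicle cell markers to 53649 RPM in ovary and 747 RPM in testis; the part of these cells in the results was not tested.

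Mitochondrial ribosomes translate the few proteins that mitochondrial DNA encodes, all of them subunits of the respiratory complexes and of ATP synthase. Their ribosomal RNAs are made in the organelle, while their proteins are translated in the cytoplasm and imported. Large-subunit proteins surround the peptidyl transferase centre and the exit tunnel, and small-subunit proteins surround the decoding site and the mRNA channel. In Drosophila, female germ cells amplify mitochondrial DNA and load the egg with mitochondria, while spermatogenesis builds elongated mitochondrial derivatives along the sperm tail.

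Of the 73 genes, 70 passed the mean of 5 RPM in 3′-seq, and by RNA-seq 71 did. The exceptions were mRpL13 and mRpL53, with no read in any library of either assay, and mRpS14. In the annotation mRpL13 (chr2L:18858028-18859248) lies entirely within CG10602, and mRpL53 within CG33155, both on the same strand. The only other overlap of that kind was that of mRpS14 with CG32533, over 3.5% of its span. mRpS14 had between 0 and 8.79 RPM by 3′-seq, while RNA-seq gave 9.6 RPM in head, 35.5 RPM in ovary and 10.6 RPM in testis.

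These are short and simple genes (dm6 coordinates). Their median coding length was 576 nt, against 1164 nt for the 12060 protein-coding genes of the table found in the annotation, and their median number of exons was 2 against 3. The shortest coding sequence was the 192 nt of mRpL33 and the longest the 1671 nt of mRpS30. The start of 56 of the 73 members (76.7%) lay within 1000 nt of the start of a coding gene transcribed away from it, against 33.3% of all protein-coding genes. The members lay on X (11), 2L (12), 2R (12), 3L (17) and 3R (21). In 42 of the 73 a gene of the opposite strand overlapped, and because the strand setting of the counting is not given in the sources used here, reads of such pairs cannot be told apart.

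A 3′-seq level does not scale with transcript length, so levels between genes are compared without a length correction in that assay. By median over the 23 libraries the highest member was mRpS7 (chr2L:10386662-10387652), the mitochondrial counterpart of a small-subunit head protein, at 170 RPM, with 63.3 RPM in BG3 and 288 RPM in 0–45 min embryos. It was followed by mRpL30 (136 RPM), mRpL10 (122 RPM), mRpL51 (95.1 RPM) and mRpL9 (87.8 RPM). mRpL10, the protein that anchors the stalk where translation factors bind, reached the highest level of any member in any library, 582 RPM in ovary. Beside the members that failed the filter, the lowest medians were those of mRpS18C (8.86 RPM) and mRpS28 (15.2 RPM).

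In RNA-seq, where levels were divided by exon length, levels are given for 71 members. The median was 16.8 RPM per kb in head (range 6.69 for mRpL21 to 66.8 for mRpS5), 54.6 in ovary (18.7 for mRpL41 to 107 for mRpL12) and 20.8 in testis (5.84 for mRpL41 to 95.3 for mRpS17). Across members, the log2 level per kb and the log2 3′-seq level had a Pearson r of 0.49 in head (n = 70), 0.37 in ovary (n = 71) and 0.71 in testis (n = 70), as a description of genes measured in the same RNA.

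The members varied less between samples than most genes did. Over the 21 libraries with at least 1000000 reads, the SD of log2(RPM + 1) had a median of 0.71 over the 70 members (0.45 for mRpL28 to 1.64 for mRpL24) and of 1.44 over all genes tested. The Pearson r of a member's log2 level with the median of the other members had a median of 0.63 (0.08 for mRpL4 to 0.85 for mRpL12) over those 21 libraries, and the same measure had a median of 0.06 over all genes. All points share the libraries and their scaling.

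The share of counted reads that fell on the 73 genes does not depend on the scaling. It was highest in ovary, at 0.601% (0.597–0.604), followed by 0–45 min embryos at 0.574% (0.568–0.581) and S2R+ at 0.553%. The 45–90 min embryos had 0.536% (0.468–0.610), an interval that contains all 3 of these values. The lowest shares were all adult: 0.157% (0.154–0.160) in female carcass, 0.182% (0.180–0.185) in head, 0.205% in male carcass, 0.226% (0.223–0.229) in testis and 0.300% in whole males. Every cell line, from 0.309% in GM2 to 0.553% in S2R+, and every embryo window, from 0.431% at 90 min to 6 h, lay above those 5 adult libraries. RNA-seq also placed ovary highest, at 0.390%, but head at 0.133% (0.132–0.134) lay above testis at 0.129% (0.127–0.130), the reverse of their 3′-seq order. That reversal holds for the shares only. After TMM scaling the summed RNA-seq level of the members was 1242 RPM in head and 1542 RPM in testis, the same order as in 3′-seq. In tissue RNA, fewer cells of a type and less RNA per cell cannot be told apart.

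**Figure D1:**
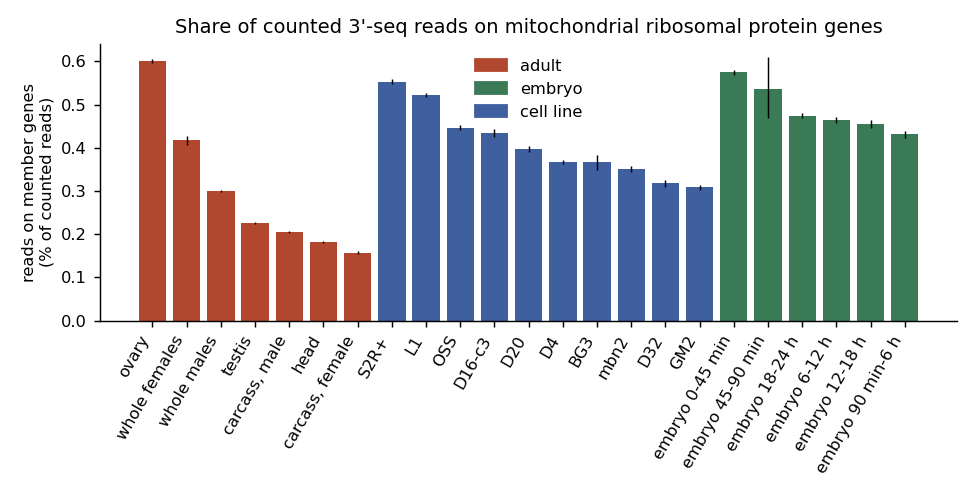
Percent of counted 3′-seq reads on the 73 mitochondrial ribosomal protein genes in each of the 23 D. melanogaster libraries, with 95% binomial intervals for counting error. Ovary (0.601%) and 0–45 min embryos (0.574%) are at the top, and female carcass (0.157%) and head (0.182%) at the bottom.

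Summed over members, the level was 8298 RPM in ovary, 4173 RPM in testis, 2754 RPM in head and 2355 RPM in female carcass. Reads on small-subunit members amounted to 0.509 of those on large-subunit members in ovary, 0.50 in head and 0.685 in testis, within a range of 0.415 (BG3) to 0.714 (90 min to 6 h embryos) over the 23 libraries. In RNA-seq the ratio was 0.669 in ovary, 0.740 in head and 0.807 in testis. Ovary was the highest of the 23 libraries for 35 of 70 members, against 13.4% of all genes tested, but this count depended on the scaling: it was 10 with library totals, 2 with relative log expression factors, 3 with upper quartile factors and 6 with TMM factors from filtered genes. Testis was the highest library for 3 of 70 members and for 21.1% of all genes.

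Head and ovary were compared first. Every one of the 70 members was lower in head than in ovary in 3′-seq, with a median log2 ratio of −1.70 (3.24-fold lower) where that of all genes was −0.23. The median member level was 32.8 RPM in head (range 7.90–153) and 100.02 RPM in ovary (25.4–582). At least 2-fold lower were 64 members and at least 2-fold higher were 0, where 36.6% of all genes were lower and 31.5% higher. The median of −1.70 was −1.15 when the shallow 45–90 min library was left out of the scaling and −0.64 with relative log expression factors, and the count of 64 was 42 and 15. Shares of all genes are given throughout at the TMM scaling defined above, so counts at other scalings have none beside them. A shift in such a count need not be a shift relative to all genes. A change of scaling shifts every gene's ratio between a pair of libraries by nearly the same amount, so the folds of single members move with these medians, which their intervals do not cover. Measured from the median of all genes instead, 55 of 70 were at least 2-fold lower and 0 higher, where 32.1% and 33.7% of all genes were, and this count stayed between 44 and 55 over the scalings tried.

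RNA-seq of the same RNA gave a median of −1.67 over 71 members, with 64 at least 2-fold lower and 0 higher, where 38.8% of genes were lower and 32.4% higher (58 lower and 0 higher from the median of all genes, where 31.1% and 35.2% of genes were). All 70 members measured in both assays had the same sign, with r = 0.93 across them, where 90.1% of 8858 genes had the same sign and r was 0.95. For 69 of the 70 the interval lay below equality in both assays. The remaining gene was mRpS5, which encodes a small-subunit protein of the mRNA entry side.

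The lowest head level relative to ovary was that of mRpS29 (also known as DAP3), a GTP-binding protein of the small-subunit head. It had 12.1 RPM in head, 84.7 RPM in ovary and 25.2 RPM in testis, so that head was 7.02-fold (5.77–8.61) below ovary, and in RNA-seq 4.82-fold (4.46–5.22). mRpS10, another small-subunit head protein, had 34.7 RPM in head and 209 RPM in ovary, a difference of 6.02-fold (5.35–6.78). mRpL21 had 19.2 RPM in head and 110 RPM in ovary, 5.75-fold (4.91–6.76) lower in head. For these members head lay well under ovary by either assay.

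At the other end stood members whose head level came near that of ovary. mRpS5 had 121 RPM in head and 128 RPM in ovary, a ratio of 0.946 (0.874–1.02). mRpL28 had 92.4 RPM in head and 110 RPM in ovary (1.19-fold lower in head, 1.09–1.30), and mRpS9 had 53.6 RPM and 67.4 RPM (1.26-fold lower, 1.12–1.41). In RNA-seq the head levels of mRpL28 and mRpS9 were 1.14-fold (1.09–1.20) and 1.08-fold (1.03–1.13) below ovary.

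The nuclear genes for the complexes that these ribosomes help to build stood the other way. All 63 oxidative phosphorylation subunit genes were above ovary in head in 3′-seq, where 4256 of 9867 genes tested were, with a median log2 ratio of 0.72. Most of these differences were small: 51 lay within 2-fold, 12 were at least 2-fold higher and 0 lower, where 31.5% and 36.6% of all genes were. In RNA-seq 62 of 63 were above ovary, with a median of 0.67. The medians of the 2 sets of genes thus differed by 5.33-fold in 3′-seq and 5.05-fold in RNA-seq, a difference in which the library scaling cancels. Examples were ATPsynbeta, the catalytic beta subunit of ATP synthase, with 3410 RPM in head and 1791 RPM in ovary, and Cyt-c1, cytochrome c1 of complex III, with 804 RPM and 382 RPM. Cytoplasmic ribosomal protein genes lay between, with a median of −1.11. Of these, 58 of 91 were at least 2-fold lower in head and 3 higher (36.6% and 31.5% of all genes). Muscle markers (5 genes) summed to 13779 RPM in head and 145 RPM in ovary, and the fat body and yolk markers (4 genes) to 126356 RPM and 10884 RPM; their part in the result was not tested.

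**Figure D2:**
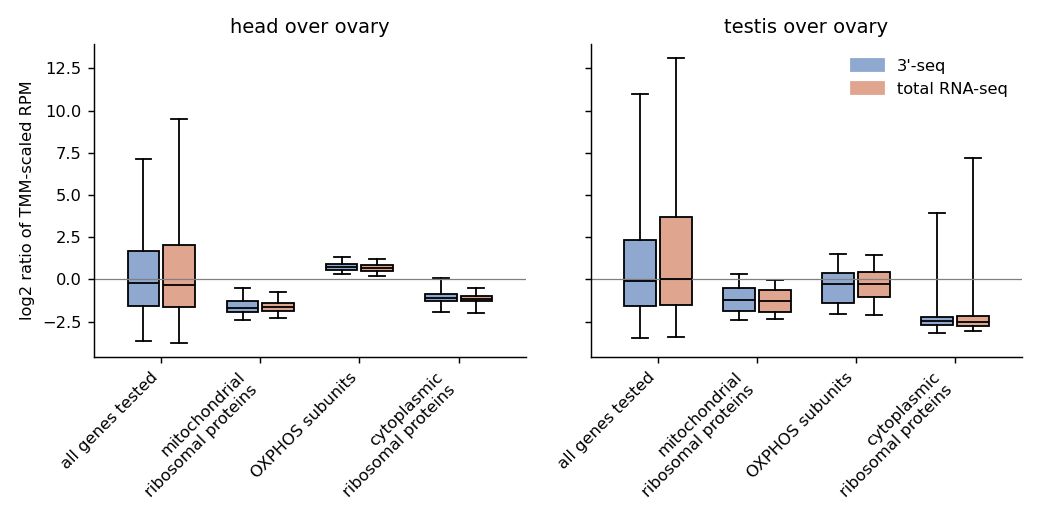
Log2 ratios between tissues for the members and for other gene lists, in 3′-seq (blue) and RNA-seq (orange); boxes span the quartiles and whiskers the 5th to 95th percentile of the genes of a list. In head against ovary the members (median −1.70 in 3′-seq) lie below 0 and the oxidative phosphorylation subunits (median 0.72) above it.

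Testis was also lower than ovary for most members at TMM scaling, but by less and less uniformly. The 2 comparisons share the ovary library. Of 70 members, 62 were below ovary in 3′-seq, with a median log2 ratio of −1.21 (2.32-fold lower) where that of all genes was −0.07, and the median testis level was 43.0 RPM (8.69–311). At least 2-fold lower were 39 members and at least 2-fold higher was 1, where 34.9% and 35.8% of all genes were. These values moved with the scaling. Without the 45–90 min library the median was −0.44, with 21 lower and 6 higher, with TMM factors from filtered genes it was −0.61, and with relative log expression factors it was −0.03, with 10 lower and 11 higher. The distance of the members' median from that of all genes was −1.14 and lay between −1.02 and −1.05 with these and the other scalings tried. Measured from the median of all genes, 38 were lower and 1 higher (33.7% and 36.5% of all genes), and between 35 and 38 lower over the scalings tried. In RNA-seq 43 of 71 were at least 2-fold lower and 0 higher, where 33.6% and 40.0% of genes were, and the median was −1.31 (−0.65 with TMM factors from filtered genes). From the median of all genes these counts were also 43 and 0 (34.1% and 39.5% of genes).

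The assays gave like ratios gene by gene, for the members as for other genes. Across the 70 members r was 0.92 and 66 (94.3%) had the same sign, where over 8858 genes r was 0.97 and 92.8% had the same sign. Of the members, 38 were at least 2-fold lower in both and 59 had an interval below equality in both. The exception was mRpS5, the only member whose testis-to-ovary ratio differed by at least 2-fold between assays. In 3′-seq it had 117 RPM in testis and 128 RPM in ovary, and in RNA-seq 23.7 RPM and 122 RPM, a gap of 2.23 on the log2 scale. Its gene model (chr3L:24537236-24543534) is annotated without an overlapping gene, and the source of the gap was not tested.

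The lowest testis levels relative to ovary belonged to large-subunit genes. mRpL20 (chr3L:13017149-13017867), a protein that binds the large-subunit rRNA, had 15.3 RPM in testis, 94.9 RPM in ovary and 23.2 RPM in head, with testis 6.22-fold (4.90–8.01) below ovary and 6.54-fold (5.50–7.82) in RNA-seq. mRpL39, a relative of threonyl-tRNA synthetase, had 13.8 RPM in testis and 82.4 RPM in ovary (5.98-fold, 4.65–7.81). mRpL44, which carries a ribonuclease III fold, had 8.90 RPM and 49.7 RPM (5.58-fold, 4.07–7.82). mRpL17, a protein of the exit tunnel rim, had 42.2 RPM and 232 RPM (5.51-fold, 4.77–6.40). In each of the 4 genes the RNA-seq ratio was also more than 4-fold.

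Large- and small-subunit genes differed in this contrast. The large-subunit median was −1.42, with 29 of 45 at least 2-fold lower and 0 higher, and the small-subunit median −0.73, with 10 of 25 lower and 1 higher (34.9% and 35.8% of all genes). The difference between these medians, in which the scaling cancels, was 0.69, and 0.66 in RNA-seq. Between head and ovary it was only −0.10 in 3′-seq and −0.07 in RNA-seq.

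Members on the X chromosome were lower in testis than those on the autosomes. Of 10 X-linked members 9 were at least 2-fold lower in testis, with a median of −2.18, against 30 of 60 autosomal members with a median of −1.02. All genes tested showed an offset of the same direction, with a median of −0.97 over 1420 X-linked genes (49.7% at least 2-fold lower) and 0.08 over 7305 autosomal genes (31.2% lower). In RNA-seq 10 of 11 X-linked members were lower (median −2.13) and 33 of 60 autosomal ones (median −1.13). An X-linked example was mRpL22 (chrX:16783933-16785092), with 24.0 RPM in testis and 125 RPM in ovary, a difference of 5.23-fold (4.32–6.39). Between head and ovary, X-linked and autosomal members had medians of −1.79 and −1.66. Of the X-linked members tested by 3′-seq, only mRpS25 and mRpS30 carry a small-subunit symbol. The testis offsets of X-linked and of large-subunit members therefore overlap, and they were not separated.

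A few members had a higher level in testis than in ovary and head at TMM scaling. mRpS17, a small-subunit protein that binds rRNA, had 83.3 RPM in testis, 33.5 RPM in ovary and 8.97 RPM in head. Testis was thus 2.49-fold (2.16–2.87) above ovary, and 1.82-fold (1.70–1.94) in RNA-seq, where the levels were 68.0, 37.4 and 11.2 RPM. It was the 1 member at least 2-fold higher in testis.

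mRpL51 (chr2L:8516753-8517380) had 311 RPM in testis, 227 RPM in ovary and 65.8 RPM in head (testis 1.37-fold above ovary, 1.28–1.46; RNA-seq 1.55-fold, 1.45–1.67). mRpS33 had 110 RPM in testis, 88.0 RPM in ovary and 43.4 RPM in head (1.26-fold, 1.13–1.40; RNA-seq 1.40-fold, 1.28–1.53). These 3 were the only members with intervals above equality in both assays. mRpS21 and mRpL24 were 1.45-fold (1.24–1.70) and 1.37-fold (1.20–1.56) higher in testis in 3′-seq, but in RNA-seq their ratios were 1.05 (0.963–1.14) and 0.902 (0.842–0.964).

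**Figure D3:**
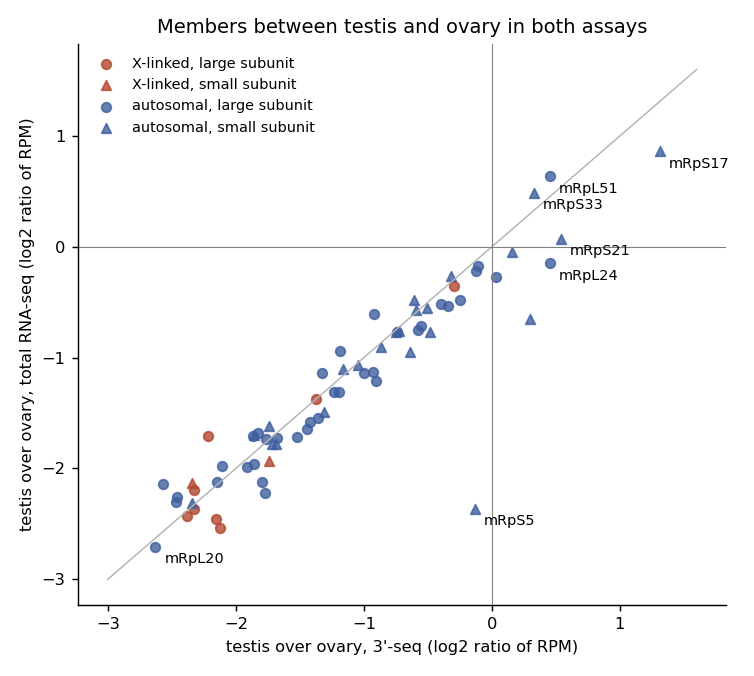
Log2 ratio of testis to ovary for each member in 3′-seq (horizontal axis) and RNA-seq (vertical axis); circles are large-subunit and triangles small-subunit members, X-linked in red and autosomal in blue, and the grey line marks equality of the assays. The points follow the line (r = 0.92 over 70 members), mRpS17 stands at the upper end, and mRpS5 lies off the line by 2.23.

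Head and testis were compared last. In 3′-seq the members' median was −0.31 where that of all genes was 0.00, with 1 member at least 2-fold higher in head and 22 lower (35.0% and 35.8% of all genes). The members' median was −0.53 without the 45–90 min library and 0.14 with upper quartile factors, with which the counts were 12 and 14. In RNA-seq 1 was higher and 17 lower (33.6% and 37.1% of genes), and 7 and 9 with library totals. Small-subunit members had a median of −1.06 and large-subunit members of −0.12 in 3′-seq. The 1 member at least 2-fold higher in head in RNA-seq was mRpS5, with 112 RPM in head and 23.7 RPM in testis. In 3′-seq it had 121 RPM and 117 RPM, and it was the only member whose head-to-testis ratio differed by at least 2-fold between assays.

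Other parts of mitochondrial gene expression were set beside the members. Both subunit genes of the mitochondrial ribosome that carry other symbols, tko and bonsai (the S12 and S15 proteins), were at least 2-fold lower in head than in ovary, at −1.86 and −1.79. tko had 60.5 RPM in head, 220 RPM in ovary and 51.1 RPM in testis, and bonsai had 19.0, 65.9 and 39.0 RPM. Of the mitochondrial elongation factors only ico, elongation factor G, was tested, with 23.1 RPM in head, 76.9 RPM in ovary and 28.4 RPM in testis. At TMM scaling ovary was highest for all 3 genes, as for the members' median. The log2 ratio of testis to ovary was only −0.75 for bonsai, and such ratios move with the scaling as those of the members do.

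Mitochondrial aminoacyl-tRNA synthetase genes, which charge the tRNAs used by this ribosome, were less uniform in testis. In head, 10 of 13 were at least 2-fold below ovary and 0 above, where 36.6% and 31.5% of all genes were. In testis, 7 of 13 were at least 2-fold below ovary and 3 above, where 34.9% and 35.8% of all genes were. TrpRS-m had 43.0 RPM in ovary and 1082 RPM in testis (RNA-seq 79.6 and 1531 RPM), and CysRS-m had 20.4 and 712 RPM. LeuRS-m and IleRS-m lay at the other end, with log2 ratios of −4.46 and −3.75.

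Genes of mitochondrial DNA replication and transcription were at least 2-fold lower in testis than in ovary in 9 of 10 cases, and 0 were higher (34.9% and 35.8% of all genes). mtSSB, the single-stranded DNA-binding protein, had 179 RPM in ovary, 10.3 RPM in head and 7.21 RPM in testis. TFAM, which packages mitochondrial DNA, had 136 RPM in ovary, 32.2 RPM in head and 26.3 RPM in testis. The oxidative phosphorylation subunits had a testis-to-ovary median of −0.30 in 3′-seq, so the members lay 0.92 below them on the log2 scale (1.06 below in RNA-seq).

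Other gene families held paralogs with high levels in testis. Of 19 oxidative phosphorylation paralogs with a symbol ending in L, 11 passed the filter on the mean level, which a high level in testis alone can satisfy. All 11 were at least 2-fold higher in testis than in ovary, where 35.8% of all genes were. Because genes low in other libraries could enter only through testis, that count is a description of the genes that passed. An example was COX4L, with 1989 RPM in testis and 0 reads in ovary. Of cytoplasmic ribosomal protein genes 85 of 91 were at least 2-fold lower in testis (median −2.47) and 6 higher, where 34.9% and 35.8% of all genes were. Among the 6 was RpL10Aa (1326 RPM in testis, 0 in ovary). Of the 70 members that passed the filter, none had 0 reads in ovary, where their lowest 3′-seq level was 25.4 RPM. The members' median lay 1.26 above that of the cytoplasmic ribosomal protein genes on the log2 scale, and 1.23 above it in RNA-seq.

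Cell lines were next. All 10 lines lay above all 7 adult libraries for 0 of 70 members (0.426% of all genes), and all below for 0 (1.44% of all genes). Over the 9 lines with at least 1000000 reads, the ratio of the highest to the lowest line had a median of 4.15 over the members (1.95–70.6) and of 4.58 over all genes, and 6 of 70 members (8.57%) differed at least 10-fold between lines, against 27.3% of all genes.

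The widest difference was that of mRpS34 (chr3L:16348074-16348782), a small-subunit protein that bacterial ribosomes lack. It had 224 RPM in S2R+, 70.9 RPM in mbn2 and 52.7 RPM in D32. In D20, L1, OSS, D4, D16-c3, BG3 and GM2 it had 14.5, 11.7, 7.5, 5.24, 4.73, 4.52 and 3.18 RPM. S2R+ stood above every other library of the atlas, the next being mbn2. As a share of member reads, mRpS34 made up 4.09% in S2R+ (1594 reads) and 0.127% in GM2 (15 reads), a 32.2-fold difference that does not depend on the scaling. Golgin104, which overlaps mRpS34 on the opposite strand, had 24.9 RPM in S2R+ and 7.84 RPM in GM2.

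mRpS29 had another order of lines. It had 76.5 RPM in L1, then 18.5 RPM in D16-c3, 17.6 RPM in D32 and 12.1 RPM in BG3. In GM2, D20, OSS and D4 it had 5.72, 5.69, 5.25 and 3.59 RPM, and in mbn2 and S2R+ 2.35 and 1.97 RPM. Its share of member reads was 1.36% in L1 (693 reads) and 0.0360% in S2R+ (14 reads), a 37.7-fold difference. The lines with the most mRpS34, S2R+ and mbn2, were thus those with the least mRpS29. qkr58E-2, the overlapping gene of the opposite strand, had 84.8 RPM in L1 and 88.1 RPM in S2R+.

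mRpL24, a protein near the exit tunnel, had 4.45 RPM in GM2 against 94.1 RPM in S2R+ and 90.5 RPM in L1. mRpS5 had 84.6 RPM in mbn2 and 7.40 RPM in D32. mRpL46 had 204 RPM in D20, 23.3 RPM in GM2 and 234 RPM in the shallow BG3 library. mRpS18C, a small-subunit paralog of mRpS18A and mRpS18B, had 0 reads in D16-c3, where 20.8 RPM was its level in L1.

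**Figure D4:**
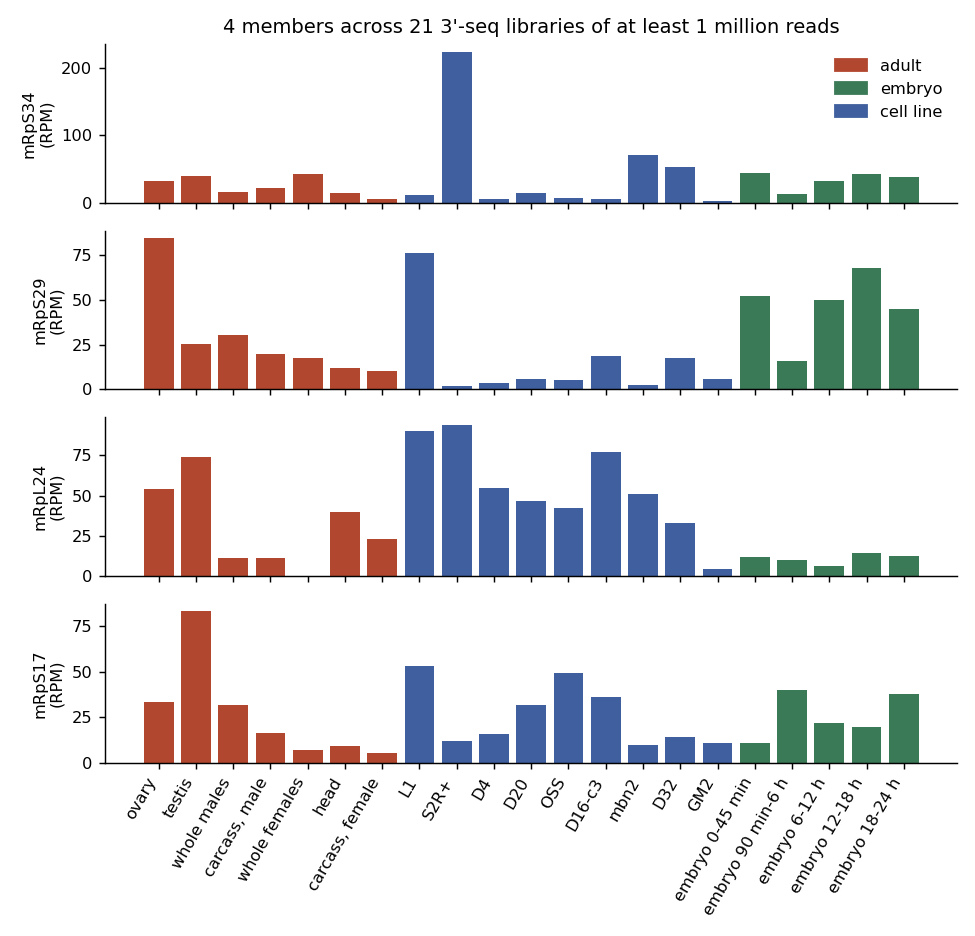
Level in RPM (linear axis) of 4 members that differ widely between libraries, mRpS34, mRpS29, mRpL24 and mRpS17, in the 21 libraries with at least 1000000 counted reads. mRpS34 peaks in S2R+ (224 RPM), mRpS29 in ovary (84.7 RPM) and L1 (76.5 RPM), and mRpS17 in testis (83.3 RPM).

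In carcass, the body without head and gonads, members and other genes had like ratios between the sexes. The members' median log2 ratio of male to female was 0.46 and that of all genes 0.49. At least 2-fold higher in males were 17 members and lower 2, where 34.4% and 6.5% of all genes were; without the 45–90 min library these counts were 10 and 3 (members' median 0.18), and with upper quartile factors 7 and 4 (median 0.02). From the median of all genes 6 were higher and 5 lower (24.1% and 12.4% of all genes). Fat body and yolk markers, 4 genes, summed to 291264 RPM in female and 3006 RPM in male carcass, and their part in these values was not tested.

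Single members stood apart. mRpL19 had 0 reads in female carcass and 96 reads (9.79 RPM) in male carcass, at least 14.6-fold higher against a floor of 3 reads per library. mRpL11, a stalk-base protein, had 1.12 RPM in females and 14.1 RPM in males (12.6-fold, 5.26–39.3, from 5 and 138 reads). mRpL22 had 8.51 RPM and 36.9 RPM (4.34-fold, 3.10–6.23), and mRpS21 had 5.15 RPM and 20.8 RPM (4.04-fold, 2.62–6.52). mRpL24 went the other way, with 23.3 RPM in females and 10.9 RPM in males.

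Whole males and whole females differed in both directions. The members' median was 0.37 against 1.11 for all genes, with 18 at least 2-fold higher in males and 7 lower (52.2% and 5.63% of all genes). Without the 45–90 min library the median was −0.013 and the counts were 14 and 12, and with library totals −0.31, 12 and 20. From the median of all genes, 10 members were higher and 30 lower in males (36.1% and 25.7% of all genes). Whole females, with ovaries, had a member share of 0.417% of counted reads against 0.300% in whole males. Their female germline markers summed to 1475 RPM against 559 RPM. The 559 RPM in whole males exceeded the sums in testis (30.7 RPM), male carcass (35.2 RPM) and female head (19.97 RPM). Follicle cell markers summed to 199.6 RPM in whole males, above male carcass (32.6 RPM) but below testis (747 RPM). The member share of whole males also exceeded those of testis (0.226%), male carcass (0.205%) and head (0.182%). The source of the female germline signal in whole males, and its part in this comparison, was not tested.

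Among the 18 were 6 members with at most 3 reads in whole females, mRpL24, mRpL50, mRpS18C, mRpS21, mRpS24 and mRpS31. That is 8.57% of members, and 9.59% of the 5400 genes in the same range of median level had as few reads there. Against the floor of that library (1.48 RPM), whole males were at least 21.7-fold higher for mRpS21 (32.03 RPM) and at least 19.98-fold higher for mRpS24 (29.5 RPM). mRpL50 had 267 reads in males and 2 in females, a ratio of 32.5 (8.92–270). All of the 6 were detected in ovary, from 25.4 RPM for mRpS18C to 58.7 RPM for mRpS24, and in female carcass, from 5.15 RPM for mRpS21 to 23.3 RPM for mRpL24.

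The embryo windows followed the members from maternal RNA onwards. In 0–45 min embryos, which carry the RNA of the egg, the members' median relative to ovary was −0.78 where that of all genes was −0.51. At least 2-fold lower were 24 and higher 0 (31.3% and 9.37% of all genes), 14 and 0 without the 45–90 min library (members' median −0.49), and 4 and 4 with library totals (median −0.07). From the median of all genes 8 were lower and 2 higher (20.5% and 14.5% of all genes). The lowest were mRpL24, with 11.7 RPM in embryos and 54.1 RPM in ovary (4.64-fold lower, 3.64–6.00), and mRpL43, with 25.2 RPM and 112 RPM (4.42-fold lower, 3.75–5.25). mRpL32 was the highest relative to ovary, with 94.2 RPM and 57.8 RPM (1.63-fold, 1.46–1.82).

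Over the windows with enough reads, the median member level was 57.03 RPM at 0–45 min, 39.2 RPM at 90 min to 6 h, 50.7 RPM at 6–12 h, 60.1 RPM at 12–18 h and 70.4 RPM at 18–24 h. It was lowest at 90 min to 6 h and highest in the last window. The median of all genes was also lowest at 90 min to 6 h, at 12.4 RPM, with 21.1, 18.8, 18.4 and 20.3 RPM in the other windows in order. Relative to it the members' median was 2.70-fold, 3.17-fold, 2.69-fold, 3.27-fold and 3.46-fold higher over the 5 windows, so that on this measure 90 min to 6 h was not the lowest. From 0–45 min to 90 min to 6 h the members' median log2 ratio was −0.73 and that of all genes −0.25, with 22 at least 2-fold lower and 1 higher (35.7% and 12.3% of all genes). Without the 45–90 min library 17 were lower and 5 higher, as from the median of all genes (31.8% and 15.3% of all genes), and 12 were lower and 10 higher with upper quartile factors.

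From 90 min to 6 h to 18–24 h, 27 were at least 2-fold higher and 0 lower (38.7% and 25.1% of all genes), with a median of 0.69 where that of all genes was 0.03. From the median of all genes, 26 were higher and 0 lower (38.5% and 25.4% of all genes); without the 45–90 min library the count higher was 39, and with library totals 17 were higher and 2 lower. Oxidative phosphorylation subunits had a median ratio of 1.43 in that interval, with 43 of 63 at least 2-fold higher, and their median level went from 149 RPM at 90 min to 6 h to 398 RPM at 18–24 h.

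Several members dipped at 90 min to 6 h, and the following large-subunit genes were named for a 4-fold difference. mRpL43 had 25.2, 4.47 and 51.6 RPM at 0–45 min, 90 min to 6 h and 18–24 h, an 11.5-fold (6.63–22.0) difference between the last 2 of these. mRpL47, a relative of bacterial L29 at the exit tunnel, had 82.3, 12.0 and 78.0 RPM (6.48-fold, 4.58–9.45). mRpL38 had 22.4, 5.50 and 39.6 RPM (7.21-fold, 4.32–12.9), and mRpL20 had 40.7, 9.63 and 58.3 RPM (6.06-fold, 4.10–9.28). In mRpL17 the levels were 108, 30.3 and 146 RPM (4.82-fold, 3.86–6.09). In these genes the middle window lay below both others. Small-subunit members such as mRpS16 (105, 31.6 and 117 RPM) and mRpS2 (60.9, 16.8 and 58.9 RPM) dipped as well.

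The dip was not shared by all members, and the following are examples. mRpS17 had 11.0 RPM at 0–45 min and 40.2 RPM at 90 min to 6 h, 3.65-fold (2.69–4.99) more, and was the 1 member at least 2-fold higher there. mRpL11 had 39.9, 74.6 and 42.6 RPM in the same 3 windows, highest in the middle one. mRpL51 (102, 177 and 142 RPM) and mRpS18B (81.8, 139 and 101 RPM) were also highest there. sigmar, which overlaps mRpL43 on the opposite strand, had 111, 31.3 and 15.7 RPM in these windows. The level of mRpL43 at 90 min to 6 h rests on 13 reads, and the part of the overlap in its levels was not tested.

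**Figure D5:**
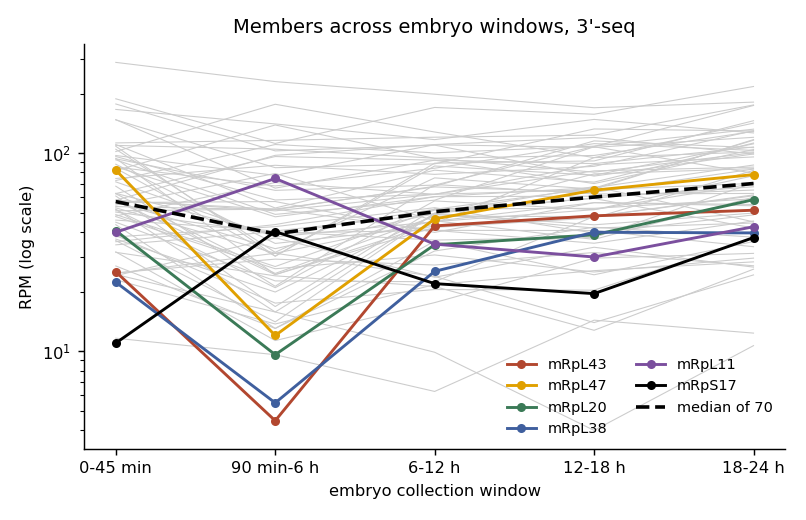
Level in RPM (log axis) of the 70 members in 5 embryo windows; grey lines are single members, the dashed line their median, and 6 members are coloured. The 45–90 min window is left out because it has 42379 reads. The members' median is lowest at 90 min to 6 h (39.2 RPM), as is that of all genes (12.4 RPM), and highest at 18–24 h (70.4 RPM), and mRpL43 dips to 4.47 RPM.

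In Drosophila yakuba the symbols of 2 members, mRpL18 and mRpS28, are given in the count tables. mRpL18 had 117 RPM in ovary, 49.0 RPM in head and 41.8 RPM in testis in 3′-seq, so that head was 2.39-fold (2.14–2.66) and testis 2.80-fold (2.42–3.24) below ovary. mRpS28 had 43.6 RPM in ovary, 8.76 RPM in head and 12.98 RPM in testis, with head 4.98-fold (3.92–6.40) and testis 3.36-fold (2.60–4.40) below ovary. For both genes ovary was also the highest tissue in RNA-seq. The D. melanogaster log2 ratios of testis to ovary were −1.33 for mRpL18 and −1.72 for mRpS28, beside −1.48 and −1.75 in D. yakuba, and in RNA-seq −1.14 and −1.78 beside −1.59 and −2.01. Those of head to ovary were −1.39 and −1.76 beside −1.25 and −2.32 in 3′-seq, and −1.45 and −1.59 beside −1.68 and −2.39 in RNA-seq. At TMM scaling the ratios of mRpS28 in the 2 species lay further apart for head than for testis. Each species was scaled on its own, and other scalings were not tried for D. yakuba. Its median log2 ratio of head to ovary over all genes was −0.15 in 3′-seq and −0.49 in RNA-seq. With 1 gene and 1 library per tissue, a species difference cannot be told apart from scaling.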

How the data were processed

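The deposited tables hold read counts per gene, counted by the authors with featureCounts on gene models with extended 3′ ends (dm6, and dyak3 for D. yakuba). 3′-seq reads were single-end of 50 nt and RNA-seq reads (TruSeq Stranded Total RNA) paired-end of 75 nt, the latter mapped with HISAT2; the counting options and the 3′-seq mapper are not given in the sources used here. The submitters' processing notes also list Trimmomatic 0.36. Total counts per D. melanogaster 3′-seq library were 42379 to 15693295, which sets the precision of each interval.

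Counts were scaled with TMM factors (edgeR 4.0.16, limma 3.58.1, R 4.3.3) to RPM per table, with all genes of the table. For log2 ratios, 0.5 prior counts at the mean scaled library size were added to both levels as RPM, while folds with an interval had no prior. Genes with a mean of at least 5 RPM over a table's libraries were compared at a 2-fold threshold. Intervals for a ratio are exact (Clopper-Pearson) 95% binomial intervals, and the floor of a library with 0 reads was 3 counts. The script was tested on simulated data. Gene positions and exon lengths came from an Ensembl annotation in dm6 coordinates, in which all 73 members were found. Other steps used Python 3.11.15, scipy 1.17.1 for intervals, pandas 2.3.3 with numpy 2.4.6 for tables, and matplotlib 3.10.9 for plots.

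Of 44 libraries 34 were used; the 10 D. virilis libraries, whose table rows match no member symbol, are not used here. Every condition has 1 library, so comparisons are descriptions. Alternatives were other scalings (library totals, relative log expression, upper quartile, TMM from filtered genes), the threshold, the pseudocount, the filter and leaving out the shallow libraries; ratios measured from the median of all genes were chosen after seeing the data. The members and the lists were chosen with earlier results of these data known. Members were named by level, by fold range, by a 4-fold difference between tissues, carcasses, whole flies, embryo windows or 0–45 min embryos and ovary, or by having no read; list genes by the size of their testis-to-ovary ratio. mRpS5, mRpS9, mRpL28, mRpS33, mRpL46, mRpL32, mRpL18 and mRpL12 were named after their values were seen.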

Additional observations from a re-analysis of the deposited data

How the results depend on the processing

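No paired analysis was possible because each condition has 1 library and the labels give no replicate numbers. The 3′-seq counts at 2-fold depended on the scaling, while percent shares, differences between list medians and ratios measured from the median of all genes depended on it less. The cause was not tested. The 45–90 min embryos (42379 reads) and BG3 (477958 reads) allow few statements on single members.

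Members higher and lower are given in turn, as in the report first. Shares of all genes are printed in the report for the main scaling only, so the counts below have none beside them. Testis against ovary, 3′-seq, 1 and 39: the number higher was 0 with library totals, 11 with relative log expression, 4 with TMM from filtered genes, 0 at 4-fold and 6 without 45–90 min embryos, and the number lower 10 with relative log expression, 14 at 4-fold and 21 without 45–90 min embryos. In RNA-seq, 0 and 43, it was 3 higher with filtered genes and 15 lower at 4-fold. Head against ovary, 64 lower in 3′-seq: 15 with relative log expression, 17 at 4-fold and 42 without 45–90 min embryos, and in RNA-seq, 64, it was 10 at 4-fold. Head against testis, 3′-seq, 1 and 22: 5 higher with library totals, 12 with upper quartile, 0 at 4-fold and 2 with no filter on low values, and 14 lower with upper quartile and 5 at 4-fold. In RNA-seq, 1 and 17: 7 higher with library totals or upper quartile, 2 with relative log expression and 3 from the median of all genes, and lower 9 with library totals, 11 with upper quartile and 3 at 4-fold.

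Male against female carcass, 17 and 2: higher 8 with relative log expression, 7 with upper quartile, 10 with filtered genes or without 45–90 min embryos, 3 at 4-fold and 6 from the median of all genes, and lower 4, 0 and 5 with upper quartile, at 4-fold and from that median. Whole males against females, 18 and 7: higher 11 at 4-fold and 10 from the median of all genes, and lower 20 with library totals, 13 with relative log expression or filtered genes, 21 with upper quartile, 0 at 4-fold, 12 without 45–90 min embryos and 30 from that median. Embryos of 0–45 min against ovary, 0 and 24: higher 4 with library totals and 2 with relative log expression, upper quartile or from the median of all genes, and lower 4, 9, 8 and 8 with these in turn, 2 at 4-fold and 14 without 45–90 min embryos. Embryos of 90 min to 6 h against 0–45 min, 1 and 22: higher 9 with relative log expression, 10 with upper quartile, 5 with filtered genes, without 45–90 min embryos or from the median of all genes and 0 at 4-fold, and lower 13, 12 and 4 with relative log expression, upper quartile and 4-fold. Embryos of 18–24 h against 90 min to 6 h, 27 and 0: higher 17 with library totals, 44 with relative log expression and 8 at 4-fold, and lower 2 with library totals. Ovary as highest library, 35: 10, 2, 3 and 6 with library totals, relative log expression, upper quartile and filtered genes.

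The sign of a median turned in 9 cases. For head against testis it was 0.14 with upper quartile in 3′-seq, and 0.060 with library totals and 0.022 with upper quartile in RNA-seq. For whole males against females it was −0.31 with library totals, −0.078 with relative log expression, −0.079 with filtered genes, −0.32 with upper quartile and −0.013 without 45–90 min embryos. The gap between members and all genes in carcass was 0.011 with no filter.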
